A study of Mus musculus with 16 samples.

Results

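The clustered protocadherins are the genes of the Pcdha, Pcdhb and Pcdhg clusters, cadherin-family adhesion molecules of the cell surface that lie side by side on mouse chromosome 18. Members were taken by name, as every listed gene symbol that starts with Pcdha, Pcdhb or Pcdhg. This gave 53 of the 17655 genes listed, of which 9 were Pcdha, 22 Pcdhb and 22 Pcdhg genes, and RefSeq places all 53 on chromosome 18. Pcdha4, Pcdha6, Pcdha7, Pcdha12 and Pcdhac1 were not analysed here.

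RNA was sequenced from mouse preSC, precancerous neuroendocrine lung cells of small cell lung cancer that are positive for Chga. Both groups carried null alleles of Rb1 and of Trp53 and were heterozygous for a null allele of Rbl2, and both received doxycycline at 1 µg/mL for 48 h before harvest. The empty group (8 samples) had been infected with a lentivirus without an insert, and the Wnt5a group (8 samples) with a lentivirus carrying Wnt5a, a secreted Wnt ligand. The cells grew in culture in medium with serum, and the labels do not say whether each group came from 1 infection, 1 clone or several.

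In the Pcdha and Pcdhg clusters each variable exon has its own promoter and is spliced to constant exons shared by the whole cluster, whereas each Pcdhb gene is a single exon without shared constant exons. In neurons most of these promoters are chosen at random, so that each cell uses a few of them, through binding of CTCF and cohesin at promoters freed of DNA methylation; the C-type members at the end of the Pcdha and Pcdhg clusters are instead used by most cells. A choice is kept through cell division, so the set of members in use can mark a clone, and the proteins let cells that carry the same set recognise one another. A bulk library sums over all its cells, so fewer cells using a promoter and less RNA per cell cannot be told apart.

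Recovered totals were 7526676 to 8859862 reads per sample. Samples 1 to 4 of a group differed from one another by sampling noise or little more, as did samples 5 to 8 (dispersion index 0.987 to 1.05 in 24 pairs, where 1 is pure counting noise), against 5.23 to 5.44 in the 32 other pairs within groups. They were therefore averaged into library A (samples 1 to 4) and library B (samples 5 to 8), which leaves 2 libraries per group. The p-values measure only the spread between these libraries, which may be technical. Ranges over samples are descriptive: groups whose samples do not overlap stand for 2 against 2 libraries, not for 8 against 8. The share of all genes without sample overlap was not counted. An exact permutation test of 2 against 2 libraries cannot go below 0.333, so single genes were tested with limma over all 12357 genes with a mean value of at least 10. The inserted gene matched the labels: Wnt5a lay between 90.4 and 174 normalised reads in the empty samples and between 1032 and 1560 in the Wnt5a samples, a log2 difference of 3.38 (SE 0.22, limma adjusted p = 0.0010). Whole-gene values cannot show the labelled null alleles, since reads remained on Rb1 in both groups (3158 to 3302 and 3147 to 3222).

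The 53 members differed widely in how well they were measured. Of them, 24 reached the mean of 10 and were tested, 25 were read at low depth, and 4 had fewer than 3 reads in every library. None of the 9 Pcdha genes was tested: the whole cluster held 25 and 33 reads in empty libraries A and B and 12 and 18 in Wnt5a libraries A and B. The 8 Pcdhb genes from Pcdhb1 to Pcdhb8 were all low, as were 12 of the 22 Pcdhg genes, and no low-read member exceeded 42 reads in any library. Libraries held 30220749 to 35315408 reads, so 1 read was worth 0.234 to 0.276 normalised reads, and the limits below cover counting error only.

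**Figure D1:**
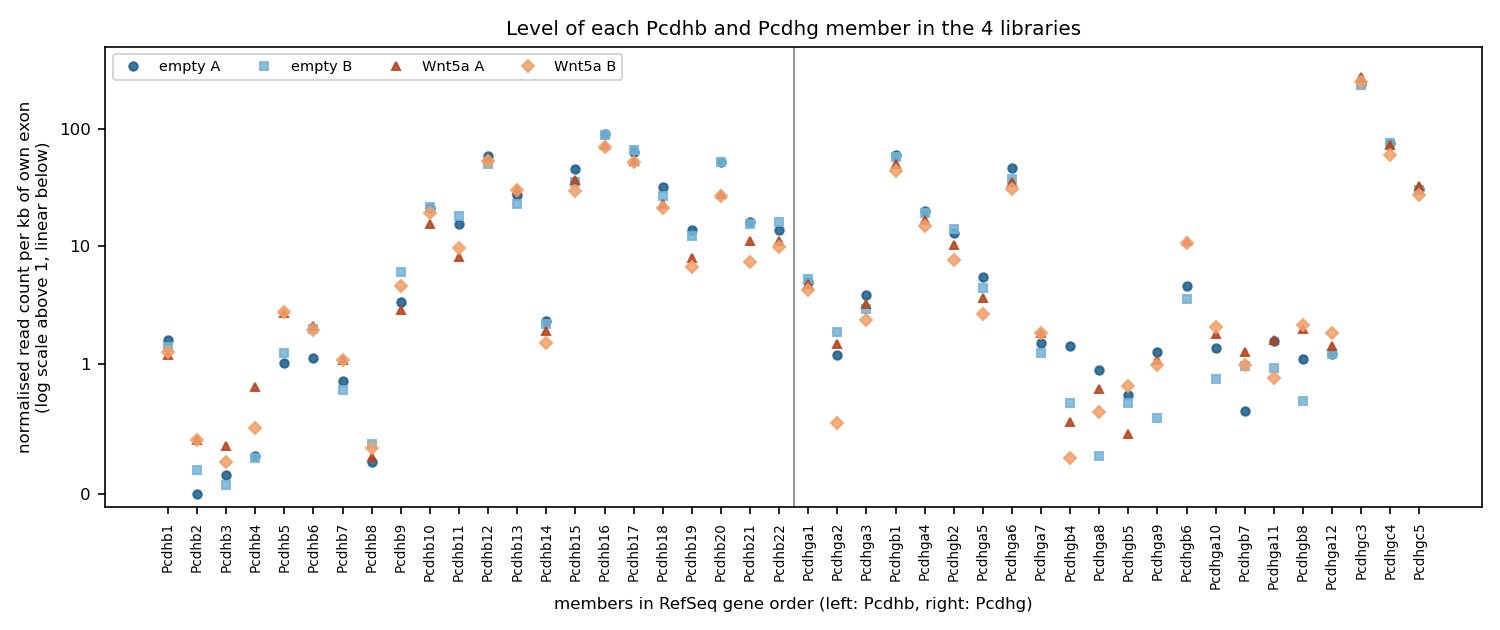
Normalised read count per kb of exon sequence not shared with other members (vertical axis, log scale above 1 and linear below) for the 22 Pcdhb and 22 Pcdhg genes in RefSeq gene order, with 1 point for each of the 4 libraries. Pcdhgc3 stands highest at 236 to 276 per kb, Pcdhb1 to Pcdhb8 stay at or under 2.78 per kb, and most members between Pcdhb10 and Pcdhb22 lie above them.

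Members were compared per kb of own exon, a scale that allows for annotated length but not for sequence repeated in other genes. On this scale the C-type gene Pcdhgc3 was the most highly expressed member. Its level was 242 and 236 normalised reads per kb in empty libraries A and B and 276 and 250 in Wnt5a libraries A and B. Pcdhb16 led the Pcdhb cluster with 91.0 and 88.8 per kb in the empty libraries against 73.5 and 70.2 in the Wnt5a libraries. The C-type gene Pcdhgc4 came to 75.7, 76.4, 73.7 and 60.5 per kb in the same library order, a range that overlaps that of Pcdhb16, so these neighbours in the order did not separate.

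Within each library a lower tier held Pcdhb17, Pcdhb12 and Pcdhgb1, whose per-kb levels interleaved. Over the 4 libraries, the range of Pcdhgc4 (60.5 to 76.4 per kb) overlapped that of Pcdhb17 and, barely, that of Pcdhgb1. Pcdhb17 lay at 63.3 and 66.2 per kb in the empty libraries and 53.5 and 52.0 in the Wnt5a libraries. Pcdhb12 lay at 58.3, 50.3, 56.1 and 53.3 per kb in the same order, and Pcdhgb1 at 60.6, 57.9, 50.5 and 43.9. Pcdhb20 reached this tier only in the empty libraries, at 52.1 and 52.8 per kb, and lay at 28.1 and 26.8 in the Wnt5a libraries, while Pcdhga6 lay between 31.0 and 46.5 per kb. Pcdhgc5, the last C-type gene of the gamma cluster, was lower, between 27.4 and 32.9 per kb in the 4 libraries.

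The order along the chromosome was uneven. All 14 genes from Pcdhb9 to Pcdhb22 were tested and held 98.0% to 99.1% of the Pcdhb reads of each library, while the first 8 genes held the rest. In the gamma cluster the 3 C-type genes held 67.1% and 69.1% of the reads in the empty libraries and 71.9% and 72.2% in the Wnt5a libraries. The share belonging to the 11 genes from Pcdhga7 to Pcdhga12 was 2.40% to 4.98%.

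The Pcdha cluster was close to silent in both groups. Pcdha2 was read 6 times (exact Poisson 95% interval 2.20 to 13.1) in empty library A and 19 times (11.4 to 29.7) in empty library B. In Wnt5a library A it had 0 reads (0 to 3.69) and in Wnt5a library B it had 3 (0.619 to 8.77). Pcdha3 had 10 and 7 reads in the empty libraries against 3 and 8, and Pcdha5 had 7 and 3 against 3 and 4. Pcdha9 had 0, 1, 2 and 3 reads. Pcdhac2, a C-type gene, had 1 read in empty library B and none elsewhere. The summed Pcdha level was 7.65 ± 1.07 normalised reads in the empty group and 3.52 ± 0.99 in the Wnt5a group (SD, n = 2), a log2 difference of -1.14 that shrank to -0.46 without Pcdha2; no Pcdha gene was read deeply enough to be tested.

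Summed over its 22 genes, the Pcdhb cluster was lower in the Wnt5a cells and the Pcdhg cluster was not separated between the groups. The Pcdhb sum ranged from 1783 to 1975 over the empty samples, with a median of 1945, and from 1431 to 1565 over the Wnt5a samples, with a median of 1497. Every Wnt5a sample lay below every empty sample. The group means were 1920 ± 46.0 and 1503 ± 58.1 (SD, n = 2), a ratio of 0.783 and a log2 difference of -0.35, with -0.34 for the A libraries and -0.37 for the B libraries. The Pcdhg sum was 1373 and 1314 in the empty libraries and 1402 and 1234 in the Wnt5a libraries, so the groups overlapped at a log2 difference of -0.03. No p-value is attached to sums over members.

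Among the 24 tested members 3 changed, at a limma p adjusted over all 12357 genes: Pcdhb20 and Pcdhb19 fell and Pcdhgb6 rose. Over all genes tested 2.06% passed this threshold, 0.672% as falls and 1.38% as rises, and 11 of the 24 members had an unadjusted p under 0.05, against 16.1% of all genes tested. With the sample numbers as a replicate block, the calls numbered 10 (9 lower, 1 higher), against 17.0% of all genes tested called by that fit (8.27% lower and 8.68% higher); it leaves 1 residual degree of freedom and so leans on the spread shared across genes. The sign was negative for 20 of the 24 members, against 49.3% of all genes tested. Both Wnt5a libraries lay below both empty libraries for 17 members and above them for 3, against 21.5% and 22.7% of all genes tested. The members' median log2 difference was -0.32, beside 0.0026 over all genes tested and -0.0047 over the 311 other tested genes of chromosome 18, of which 160 had a negative sign.

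**Figure D2:**
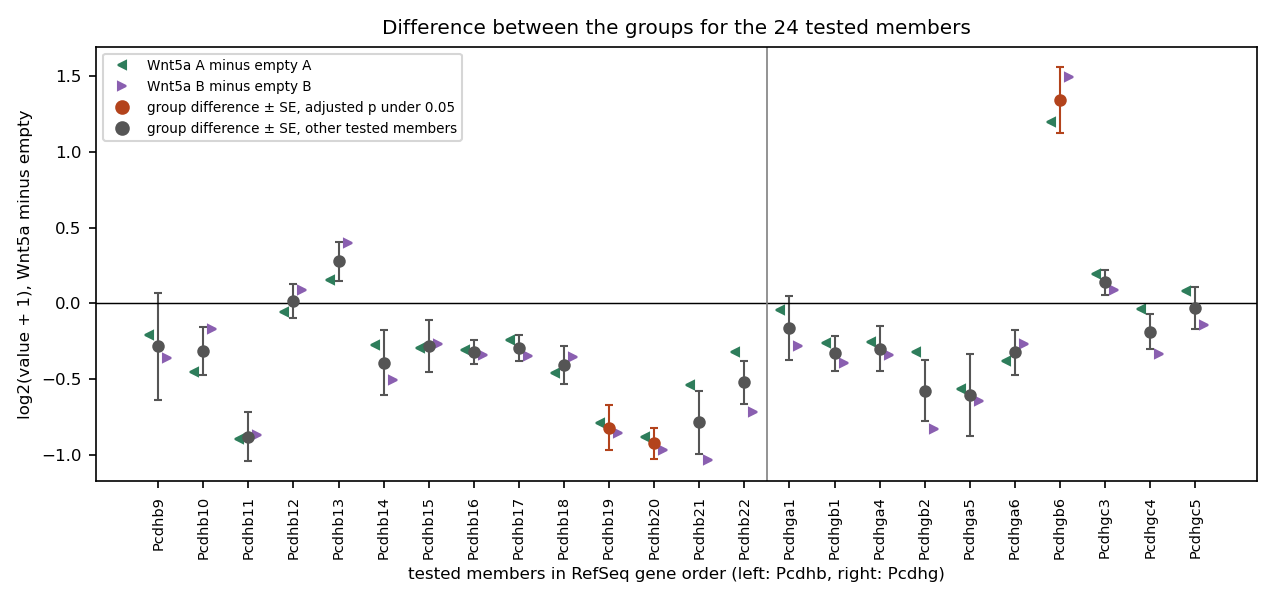
Difference between groups, on the log2(value + 1) scale, Wnt5a minus empty (vertical axis), for the 24 tested members in RefSeq gene order; circles with bars are group differences ± SE from limma, and triangles are the same difference within library pairs A and B. Pcdhb20 (-0.93), Pcdhb19 (-0.82) and Pcdhgb6 (1.34) passed the adjusted threshold, and 20 of 24 circles lie below 0.

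Pcdhb20 had the largest fall among the 14 tested Pcdhb genes. Its normalised read count ran from 170 to 207 (median 187) in the empty samples and from 86.8 to 117 (median 96.7) in the Wnt5a samples, with no overlap. The group means were 186.6 ± 1.81 and 97.7 ± 3.30 (SD, n = 2), a ratio of 0.524, and rested on 672 and 738 reads against 426 and 407. By limma this was a change of -0.93 in log2 value (SE 0.10, adjusted p = 0.0085), which passed the threshold in 15 of 15 alternative analyses. Its neighbour Pcdhb19 ran from 84.2 to 105 (median 93.8) in the empty samples and from 44.0 to 63.1 (median 53.2) in the Wnt5a samples, again without overlap. Its fall by 0.82 in log2 value (SE 0.15) had a limma adjusted p of 0.049, close to the threshold, and passed in 10 of 15 alternatives; the adjusted p was 0.058 without Wnt5a library A and 0.203 without Wnt5a library B.

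Pcdhb11 showed a difference of like size that missed the threshold. It ranged from 59.8 to 87.8 (median 75.4) in the empty samples and from 32.9 to 50.8 (median 38.9) in the Wnt5a samples. Both Wnt5a libraries were below both empty libraries, as were their samples. In log2 value the groups differed by -0.88 (SE 0.16, adjusted p = 0.052 in limma and 0.0048 with the replicate block). Without empty library A its limma adjusted p was 0.0036 and without empty library B 0.019, while without Wnt5a library A it was 0.160. It passed in 7 of 15 alternatives, DESeq2 among them (adjusted p = 0.0083). Pcdhb21 likewise did not overlap, at 61.9 to 75.3 against 25.4 to 54.5, but its Wnt5a libraries lay apart (39.2 ± 11.0, SD, n = 2). Its log2 difference was -0.79 (limma adjusted p = 0.128; 0.015 with the block). RefSeq order puts Pcdhb21 next to Pcdhb22, and the annotation gives them a common exon stretch, so their reads cannot be fully assigned to one or the other.

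The most abundant Pcdhb genes differed by less. Pcdhb16 ran from 444 to 492 (median 465) in the empty samples and from 357 to 420 (median 371) in the Wnt5a samples, and Pcdhb17 from 288 to 341 (median 297) against 223 to 261 (median 247). Neither overlapped between the groups. The log2 differences were -0.32 for Pcdhb16 (limma adjusted p = 0.111; 0.0098 with the block) and -0.29 for Pcdhb17 (0.160; 0.024 with the block). Pcdhb18 (-0.41, limma adjusted p = 0.177; 0.019 with the block) and Pcdhb22 (-0.52, 0.137; 0.032 with the block) gave the remaining Pcdhb calls that depend on the block.

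Not every Pcdhb gene had a lower value. Pcdhb12, the third most abundant Pcdhb gene, ran from 132 to 189 (median 166) in the empty samples and from 152 to 179 (median 165) in the Wnt5a samples, which overlapped throughout. Its log2 difference was 0.01 (limma adjusted p = 0.971) and turned to -0.0048 when each library was centred on its median. Pcdhb13 was 93.4 ± 11.5 in the empty group and 112.8 ± 0.17 in the Wnt5a group (SD, n = 2); both Wnt5a libraries were above both empty libraries, at a log2 difference of 0.28 that did not pass (limma adjusted p = 0.366).

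**Figure D3:**
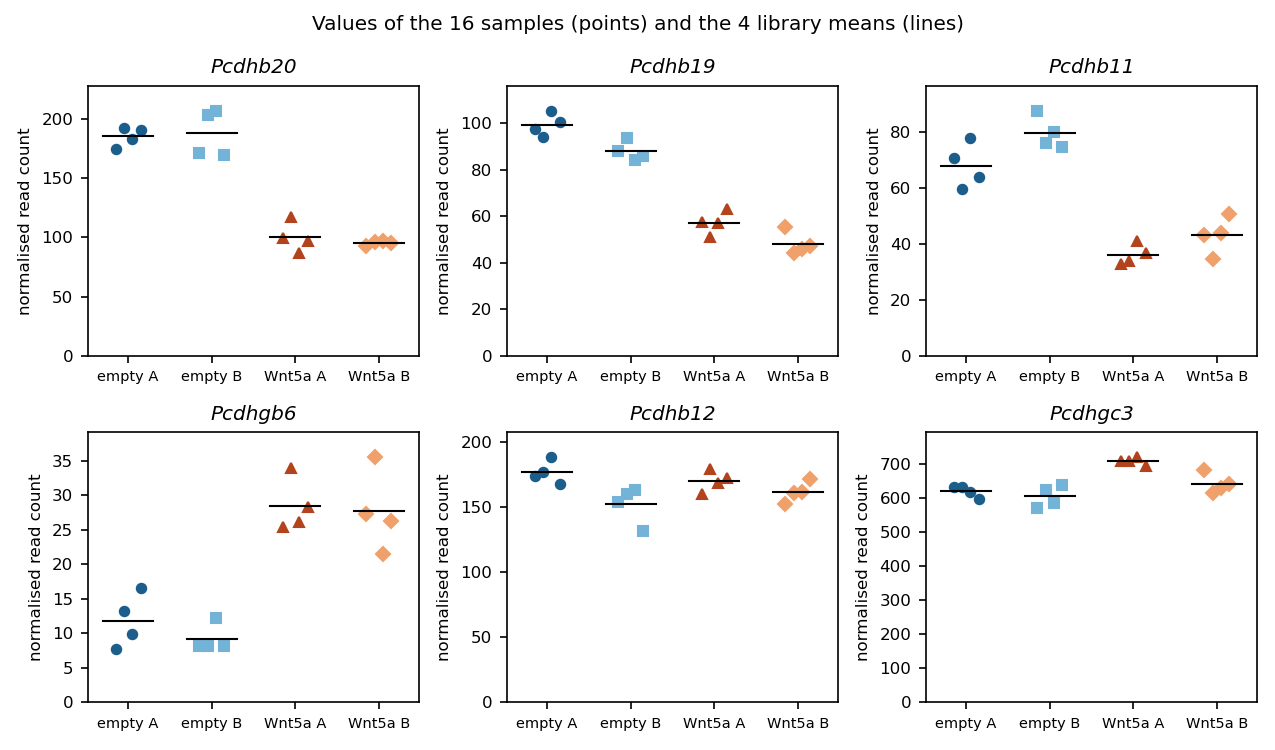
Normalised read counts (vertical axes, starting at 0) of 6 members in the 16 samples, in 4 columns for the 4 libraries, with a line at each library mean. For Pcdhb20, Pcdhb19 and Pcdhb11 every Wnt5a sample lies below every empty sample, and for Pcdhgb6 every Wnt5a sample lies above. For Pcdhb12 and Pcdhgc3 the samples of the groups overlap, though both Wnt5a library means of Pcdhgc3 lie above both empty ones.

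In the gamma cluster the variable gene Pcdhgb6 rose from a low level. It ran from 7.73 to 16.6 normalised reads (median 9.03) in the empty samples and from 21.5 to 35.6 (median 26.8) in the Wnt5a samples, without overlap. The recovered reads were 43 and 36 in the empty libraries and 121 and 118 in the Wnt5a libraries, a ratio of means of 2.67. In log2 value it rose by 1.34 (SE 0.22; adjusted p = 0.034 in limma), past the threshold in 11 of the 14 alternatives that tested it; the adjusted p was 0.129 without Wnt5a library A and 0.140 without Wnt5a library B. Of 50-base windows of its transcript outside the constant exons, 87.9% were found in no other annotated gene. Part of its sequence is thus shared with other genes, and reads there may be split or dropped.

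Except for Pcdhgc3, at a log2 difference of 0.14, the other tested gamma genes had log2 differences below 0, that of Pcdhgc5 near 0 (-0.03). All 6 tested genes from Pcdhga1 to Pcdhga6, a stretch set after the values were seen, had both Wnt5a libraries below both empty libraries. Over all genes tested the share was 21.5%. The log2 differences of the 6 ran from -0.61 to -0.16, and 0 of the 6 passed the limma threshold. Pcdhgb1, the most abundant of them, ran from 128 to 164 (median 160) in the empty samples and from 106 to 141 (median 122) in the Wnt5a samples, which overlapped. Its log2 value differed by -0.33 (SE 0.12; adjusted p = 0.226 in limma, 0.039 with the block). Pcdhga6 was 110 ± 16.9 against 87.1 ± 8.42 (SD, n = 2; limma adjusted p = 0.362).

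The 3 C-type gamma genes did not pass the test. Pcdhgc3 ran from 573 to 639 (median 621) in the empty samples and from 615 to 721 (median 688) in the Wnt5a samples, which overlapped. Its libraries did not overlap, at 620 and 605 in the empty group and 708 and 643 in the Wnt5a group. Over all genes tested, 22.7% had both Wnt5a libraries above both empty libraries. The log2 difference of Pcdhgc3 was 0.14 (SE 0.08, limma adjusted p = 0.499). Pcdhgc4 was 221 ± 1.60 against 195 ± 27.0 (SD, n = 2; -0.19, limma adjusted p = 0.534), with the spread coming from the 2 Wnt5a libraries. Pcdhgc5 was 80.5 ± 1.15 against 79.1 ± 10.1 (SD, n = 2; -0.03, limma adjusted p = 0.951).

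Low-read members gave values but no tests. Pcdhb5 had 13 (exact Poisson 95% interval 6.92 to 22.2) and 17 (9.90 to 27.2) reads in the empty libraries and 41 (29.4 to 55.6) and 42 (30.3 to 56.8) in the Wnt5a libraries, in libraries of unequal depth; with no filter on low values its limma adjusted p was 0.137. Pcdhgb8 had 10 and 7 reads against 21 and 23, and Pcdhb4 had 4 and 4 against 13 and 8. Pcdhgb4 went the other way, with 13 and 7 reads in the empty libraries and 6 and 3 in the Wnt5a libraries. Pcdhb1 had 14 or 15 reads in the empty libraries and 13 or 14 in the Wnt5a libraries, a difference not detectable at this depth.

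Neighbouring members were summed into stretches, whose limits were set after the values were seen, so these sums and the counts within them carry no test. Pcdhb16 to Pcdhb22, the last 7 genes of the beta cluster, were lower in both Wnt5a libraries in 7 of 7 cases, against 21.5% of all genes tested. The log2 differences ran from -0.93 to -0.29. Their summed level was 1370 and 1350 in the empty libraries and 1022 and 951 in the Wnt5a libraries, a ratio of 0.725. The preceding stretch, Pcdhb9 to Pcdhb15, summed to 565 and 516 against 492 and 482, a log2 difference of -0.15. Pcdhb1 to Pcdhb8 went the other way at a far lower level, with sums of 17.4 and 21.1 against 30.8 and 29.3, of which Pcdhb5 made up a large part: without it the sums were 13.8 and 16.8 against 21.1 and 19.5.

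In the gamma cluster Pcdhga1 to Pcdhga6 (8 genes, since Pcdhgb1 and Pcdhgb2 lie among them) summed to 408 and 375 in the empty libraries and 331 and 282 in the Wnt5a libraries. Pcdhga7 to Pcdhga12 (11 genes) summed to 43.6 and 31.6 against 62.9 and 61.4. Pcdhgb6 held a large part of these reads: without it the sums were 31.7 and 22.4 against 34.5 and 33.7, a ratio of 1.26. The C-type stretch overlapped between groups, at 921 and 907 against 1008 and 890.

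**Figure D4:**
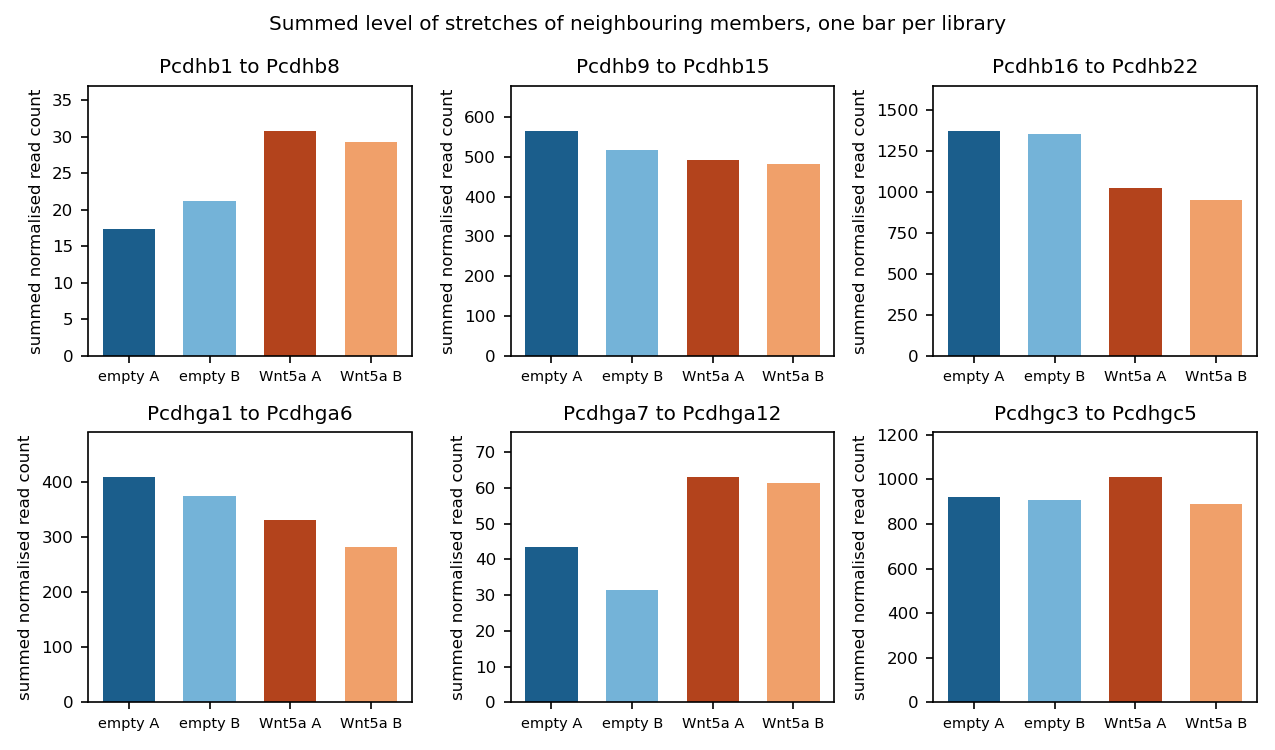
Summed normalised read count (vertical axes, starting at 0) of 6 stretches of neighbouring members, 1 bar for each of the 4 libraries. The bars of Pcdhb16 to Pcdhb22 fall from 1370 and 1350 in the empty libraries to 1022 and 951 in the Wnt5a libraries, those of Pcdhb1 to Pcdhb8 and Pcdhga7 to Pcdhga12 are higher in the Wnt5a libraries, and those of the C-type genes overlap.

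The makeup of each cluster, which does not depend on its total, was compared through the share of cluster reads that each member held. Pcdhb20 held 9.49% (exact Clopper-Pearson 95% interval 8.82 to 10.2) and 9.96% (9.28 to 10.7) of Pcdhb reads in the empty libraries. In the Wnt5a libraries it held 6.48% (5.89 to 7.10) and 6.53% (5.93 to 7.17), a mean difference of -3.22 percentage points. The share of Pcdhb16 hardly moved, at 24.4% and 24.6% against 24.9% and 25.1%, while Pcdhb12 went from 9.07% and 8.08% to 11.0% and 11.1%.

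Pcdhgc3 held 45.2% (43.8 to 46.6) and 46.1% (44.7 to 47.5) of Pcdhg reads in the empty libraries and 50.5% (49.2 to 51.8) and 52.1% (50.7 to 53.4) in the Wnt5a libraries, a mean difference of 5.65 points. The share of Pcdhgb6 was 0.864% and 0.698% against 2.03% and 2.24%, and that of Pcdhgb1 was 11.5% in both empty libraries against 9.40% and 9.27%. Shares in a cluster sum to a fixed total, so a lower share of some members raises that of the others.

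The distance between 2 makeups was taken as the percentage points of cluster reads that would have to move to turn one into the other. In the Pcdhb cluster it was 2.90 to 6.71 points (median 4.28) between samples of 1 library, 4.05 to 7.42 (median 5.59) between samples from different libraries of 1 group, and 7.58 to 11.4 (median 9.44) between groups. Every distance between groups thus exceeded every distance within one, but the samples are repeats of 4 libraries and these distances include counting noise. In the Pcdhg cluster the corresponding values were 3.55 to 6.36 (median 4.35), 2.71 to 6.97 (median 4.80) and 5.19 to 12.3 (median 8.78), which overlapped. Between libraries, the Pcdhb distance was 4.49 points between the empty libraries, 3.18 between the Wnt5a libraries and 7.01 to 8.92 between groups. The Pcdhg distance was 2.60 points between the empty libraries, 2.36 between the Wnt5a libraries and 6.67 to 9.08 between groups. Of the latter, 7.17 was from empty A to Wnt5a A and 8.64 from empty B to Wnt5a B. In both clusters the libraries of 1 group thus lay closer together than libraries of different groups.

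The number of members in effective use, computed from shares per kb so that equal use of n members gives n, was 9.01 and 9.04 for Pcdhb in the empty libraries and 8.69 and 8.72 in the Wnt5a libraries. For Pcdhg it was 3.78 and 3.65 against 3.26 and 3.12. Both were a little lower in the Wnt5a libraries, and in both groups many members of each cluster were read at once, in RNA summed over all cells. The Pcdhg number includes the C-type genes. Pcdhgc3 alone held 46.4% and 47.4% of the per-kb total in the empty libraries, against 51.8% and 53.4% in the Wnt5a libraries. The number was not computed over the variable Pcdhg genes alone, so it cannot show whether fewer of their promoters were in use.

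None of 11 CTCF and cohesin genes, which act in the choice of these promoters, passed the limma threshold (1 had an unadjusted p under 0.05, and edgeR and DESeq2 called 0), with a median log2 difference of 0.03 and a range from -0.13 to 0.30. Ctcf itself, the factor bound at the promoters, differed by 0.07 (limma adjusted p = 0.747), and Rad21, the cohesin subunit with the highest level, by 0.05 (limma adjusted p = 0.844). Smc3, another cohesin subunit, was 1229 ± 24.8 against 1513 ± 134 (SD, n = 2; 0.30, limma adjusted p = 0.152; 0.010 with the block). Stag2 differed by -0.01 (limma adjusted p = 0.973), a sign that turned under quantile normalization.

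Of 12 genes of DNA methylation and silencing, 0 passed in limma, edgeR or DESeq2 (1 had an unadjusted p under 0.05 in limma), with a median log2 difference of -0.0067. Dnmt3a, a de novo DNA methyltransferase, was 1988 ± 114 in the empty group and 2447 ± 5.85 in the Wnt5a group (SD, n = 2), and its samples did not overlap. The log2 difference was 0.30 (limma adjusted p = 0.118; 0.0080 with the block). Dnmt1, the maintenance methyltransferase, differed by -0.01 (limma adjusted p = 0.965) and Trim28, a corepressor, by 0.02 (limma adjusted p = 0.935).

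Partners and effectors of the proteins gave 0 calls among 19 genes in limma and in edgeR and 1 in DESeq2, with 1 unadjusted p under 0.05 in limma. That gene was Ncstn, a subunit of the gamma-secretase that cleaves protocadherins, at 1864 ± 7.61 against 1471 ± 92.9 (SD, n = 2; -0.34, limma adjusted p = 0.090; 0.0064 with the block). Ret, a receptor kinase, differed by -0.03 (limma adjusted p = 0.905) and Marcks, an actin-linked membrane protein, by 0.07 (limma adjusted p = 0.744).

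The non-clustered protocadherins, related genes with single promoters outside the 3 clusters, gave 1 call among the 6 tested of 12, against 2.06% of all genes tested. Among them Pcdh1 and Pcdh12 also lie on chromosome 18. Pcdh8 ran from 252 to 434 (median 336) in the empty samples and from 115 to 178 (median 137) in the Wnt5a samples, without overlap. It fell by 1.17 in log2 value (SE 0.21; adjusted p = 0.049998 in limma), at the very edge of the threshold, and lost the call in 6 alternatives, with an adjusted p of 0.063 without Wnt5a library A. Pcdh7, the most abundant, was 3873 ± 599 against 3222 ± 92.0 (SD, n = 2; -0.26, limma adjusted p = 0.337; 0.037 with the block), and Pcdh10 was 775.6 ± 127 against 961 ± 31.0 (SD, n = 2; 0.32, limma adjusted p = 0.242). Pcdh15 was 41.6 ± 4.77 against 58.2 ± 4.35 (SD, n = 2; 0.48, limma adjusted p = 0.197; 0.040 with the block).

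Genes that flank the clusters on chromosome 18 gave no calls. Of 17 neighbours chosen, 16 were listed and 14 were tested and 0 passed in limma, edgeR or DESeq2, none with an unadjusted p under 0.05 and none with the block. Their log2 differences ran from -0.26 to 0.22 with a median of 0.05. Ik, an mRNA-splicing factor, differed by 0.01 (limma adjusted p = 0.971) and Hdac3, a histone deacetylase, by -0.04 (limma adjusted p = 0.880); both signs turned when 1 library was left out, and that of Ik also under median centring.

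Marker lists of cell types were read beside these results, and their part in the result was not tested. None of the neuroendocrine markers passed in limma or edgeR (1 had an unadjusted p under 0.05 in limma, and DESeq2 called 1). Chga, a granule protein, was 4043 ± 462 against 3403 ± 561 normalised reads and Calca, a neuropeptide gene, 8248 ± 348 against 6657 ± 455 (SD, n = 2), with limma adjusted p of 0.428 and 0.154, and 0.013 and 0.0060 with the block. Map2, Snap25 and Tubb3, the 3 tested neuron markers of 4, summed with Rbfox3 to 7055 and 6671 in the empty libraries. In the Wnt5a libraries the sums were 5582 and 5494. None of the 3 passed in limma, while all 3 were called lower with the block, a fit that called 8.27% of all genes tested as lower. Of the 4 listed fibroblast markers only Dcn was above 10, at 597 and 340 against 241 and 246 (limma adjusted p = 0.131; 0.014 with the block and 1.4e-04 in DESeq2), while Col1a1, Col1a2 and Pdgfra stayed at or under 9.41. The leukocyte markers summed to 10.8 to 15.3, those of endothelium to 2.58 to 4.41 and those of lung epithelium to 42.5 to 47.9.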

How the data were processed

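Each deposited file gives 1 normalised signal value per gene and sample; per the submitters' processing notes TopHat, Bowtie, HTSeq and DESeq2 were used, while versions, roles, genome build, annotation, strand use and counting mode are not given in the sources used here. All deposited values were whole multiples of 1 step per sample, so whole reads were recovered and counted. Levels were compared with limma 3.58.1 (R 4.3.3) on log2(value + 1), which understates changes of low genes, for genes with a mean value of at least 10, with Benjamini-Hochberg adjustment over all of them and a threshold of 0.05. Sample numbers are shared between groups, and the deviations of the 8 same-numbered pairs correlated at 0.175 to 0.220 (libraries 0.440). Differently numbered samples were not compared. Since the samples of a library are repeats, the 8 values reflect 1 contrast of A with B and cannot show that single numbers pair. A replicate block, A against B, was therefore fitted only as an alternative. Other alternatives were pseudocounts, filters, centring, omission of each library, edgeR 4.0.16 and DESeq2 1.42.0 on the recovered reads; the statistics were tested on simulated data.

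Members named are the 4 most abundant per cluster, the C-type genes and every member called with or without the block; Pcdhb1, Pcdhb4, Pcdhb5, Pcdhb13, Pcdhgb4 and Pcdhgb8 were named after their values were seen, as were Smc3, Dnmt3a, Ncstn and Pcdh15. From each list the called genes and the 2 most abundant are given, and Ctcf besides. Members and lists were chosen with earlier results of these data known. Gene order is from RefSeq (GRCm38.p6) and own-exon length from GENCODE M21, used for lengths only since the build of the files is not given. The median share of 50-base windows unique to a member was 95.5% for Pcdhb and 98.1% for Pcdhg, with the lowest at 61.2% for Pcdhga4. Antisense transcripts are annotated over Pcdhb12, Pcdhga10, Pcdhgb7, Pcdhga11 and Pcdhgc3, whose reads cannot be told apart without strand. One neuroendocrine marker is not reported here.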

Additional observations from a re-analysis of the deposited data

How the results depend on the processing

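The 3 members called (2.06% of all genes tested were called) became 1 with no filter on low values (all genes 0.827%) and 1 with a minimum mean of 50 (0.947%), 18 with all 16 samples counted separately (35.4%; a fit that treats repeats of 1 library as replicates) and 10 with the replicate block (17.0%). Leaving out 1 library each gave 1 to 6: 1 without Wnt5a library B (1.12%), 2 without Wnt5a library A (1.34%), 5 without empty library A (3.99%) and 6 without empty library B (8.89%). Where 1 library of a group is left out, the lone library is assumed to vary like the other group. No call on a member or listed gene was lost with the block. Pcdhb20 was called under every alternative. Pcdhb19 lost its call with no filter, a minimum of 50, no variance trend, and without either Wnt5a library; Pcdhgb6, untested at a minimum of 50, lost it with no filter and without either Wnt5a library. The Pcdha sum went to -0.46 and the Pcdhg sum to -0.19 without their most abundant member, and the Pcdhb20 share to -3.99 points per kb (the alternatives for shares were chosen after seeing the data). A Pcdha sum over members with a mean of at least 10 could not be had, as none reached it. With 1 library left out, the Pcdhb sum stayed between -0.39 and -0.31 and the Pcdhg sum ran from -0.12 to 0.06. The untested, low-read Pcdha5 went from -0.32 to 0.0431 without empty library A. Among tested genes named here, signs turned for values near 0: Pcdhb12 gave -0.0048 with median centring and -0.0926 to 0.121 with 1 library left out, Pcdhgc5 -0.160 to 0.0966, Stag2 0.0103 under quantile normalization and -0.101 to 0.0797, Dnmt1 0.0177 and -0.107 to 0.0809, Ret 0.0092 and -0.0817 to 0.0140, Trim28 -0.0167 to 0.0614, Ik -0.00998 under median centring and -0.0271 to 0.0453, and Hdac3 -0.102 to 0.0192. The cause of these shifts was not tested. With 2 libraries per group only large differences can pass, and low-read members cannot be compared.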

Other observations

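Some members differed more between libraries A and B than between the groups. Pcdhb9 had 37 reads (exact Poisson 95% interval 26.1 to 51.0) in empty library A and 72 (56.3 to 90.7) in empty library B, and 37 (26.1 to 51.0) and 60 (45.8 to 77.2) in Wnt5a libraries A and B. Pcdhb15 was higher in the A libraries of both groups, at 127 against 99.3 normalised reads in the empty libraries and 103 against 82.3 in the Wnt5a libraries. Both genes were picked after their values were seen, and the difference between A and B was not tested.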
